A study of Rattus norvegicus with 91 samples.

Results

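Rat liver labelled 18 h in a methylprednisolone time course was compared with rat liver labelled 6 h in the same course. The members are 8 arrays, 4 at 18 h and 4 at 6 h, chosen by the hour in their titles from the 44 arrays of the longer of 2 time courses. The whole series holds 91 arrays. By the labels every rat of both groups was a Wistar rat given 50 mg/kg methylprednisolone. That dose stands with every array of the series, the controls included, so it does not show how the drug was given over the long course. The comparison sets a later against an earlier hour of the course and not dosed against undosed animals. The 4 control arrays of the same course took no part in the tests and are given as a background level. The labels give no route, dosing schedule, sex, age, feeding state or hour of the day. Whether the drug was given once or for longer is thus not known. The hour of the course and the hour of the day cannot be told apart. Nothing in the labels says that the 4 replicates of a time came from separate animals, so p-values measure only the spread between arrays, which may be technical.

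Methylprednisolone is a synthetic glucocorticoid that binds the glucocorticoid receptor, a transcription factor encoded by Nr3c1. In liver the receptor is known for switching on enzymes that break down amino acids and make glucose, along with stress-response and signalling genes, and for holding down inflammatory genes. Many of the same genes also follow feeding and the circadian clock, a loop in which the Per and Cry proteins repress their own activators. The liver secretes large amounts of plasma protein, whose folding in the endoplasmic reticulum (ER) depends on chaperones.

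Signals are in the scaled units that the authors deposited. All differences are 18 h minus 6 h on the log2(signal + 32) scale, with the standard error and Benjamini-Hochberg adjusted p from limma, and a fold on that scale understates the change of dim genes. Pearson's r between arrays over probe sets ranged from 0.94 to 0.966 within 6 h, from 0.934 to 0.958 within 18 h and from 0.907 to 0.943 between the times. Spiked-in bacterial control transcripts were brighter on replicate 4 of both times than on the other 3 replicates. The log2 ratio of the 3' to the 5' Gapdh control probe set, a sign of RNA integrity, was 0.23 ± 0.25 (SD, n = 4) at 6 h and 0.32 ± 0.26 at 18 h (exact permutation test, two-sided, p = 0.6, where 0.0286 is the smallest p that 4 against 4 arrays allow). The summed signal of 9 hepatocyte markers ran from 51953 to 114075 at 6 h and from 61397 to 101441 at 18 h, and none of the 9 was called (none at an unadjusted p under 0.05 either). Exocrine pancreas transcripts varied between arrays. Prss1, a trypsinogen, read 1717, 42.7, 359 and 2371 at 6 h and 461, 117, 44.6 and 373 at 18 h in replicates 1 to 4. Cpa1, Pnlip and Amy2a3 were likewise highest in 6 h replicates 1 and 4, none of the 7 adipose and pancreas markers tested was called (1 at an unadjusted p under 0.05, lower), and their part in the results was not tested.

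Of 11106 probe sets tested, 760 (6.84%) passed an adjusted p under 0.05. These were 397 (3.57%) higher and 363 (3.27%) lower at 18 h. Counted by gene, with the brightest probe set standing for each, 568 of 8068 genes (7.04%) were called, 292 (3.62%) higher and 276 (3.42%) lower. The falls were the larger changes. Of the genes called lower, 79 (28.6%) fell by at least 1 on the log2 scale, against 33 (11.3%) of the genes called higher that rose by as much. The 2 groups of 4 arrays did not overlap for 239 of the 292 genes called higher and 216 of the 276 called lower, against 1001 of all 8068 genes (12.4%). The same arrays served to call these genes, so their larger share follows from the choice and is a description only. Without 18 h replicate 1 the number of probe sets called dropped from 760 to 496 and those higher to 253, without 6 h replicate 3 those lower were 233, and a fit of the 8 arrays alone called 395.

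Genes known to be switched on by glucocorticoids were lower at 18 h wherever they were called. Of 26 measured members of that list, 10 fell, beside 3.42% of all genes called lower. None rose (none at an unadjusted p under 0.05) and 16 did not pass, with a median difference of -0.59 against -0.01 over all genes. Sds, the serine dehydratase that turns serine into pyruvate, fell furthest of all genes tested. Its signal in replicates 1 to 4 was 4869, 3432, 4480 and 4842 at 6 h and 224, 791, 83.3 and 104 at 18 h. All 6 h arrays stood above all 18 h arrays, and 18 h replicate 2 was the highest of the later group. The difference was -4.20 ± 0.49 (SE), adjusted p = 3.93e-07, or 18.3-fold lower, and the control arrays averaged 465 ± 784 (SD, n = 4).

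Lpin1, a phosphatidate phosphatase of triglyceride synthesis that also acts as a coactivator, read 2225, 2449, 2394 and 3104 at 6 h and 140, 873, 139 and 153 at 18 h. The groups did not overlap, and 18 h replicate 2 again lay well above the other later arrays, which sat near the control mean of 156. Lpin1 fell 9.65-fold (-3.27 ± 0.44 (SE), adjusted p = 1.05e-05). Sgk1, a kinase that regulates ion transport, read 615, 448, 545 and 1001 at 6 h and 134, 156, 136 and 166 at 18 h, with no overlap and a tight later group. Its difference was -1.87 ± 0.21 (SE), adjusted p = 3.89e-07. Igfbp1, a secreted binding protein for insulin-like growth factors, read 3889, 787, 3315 and 4270 at 6 h and 861, 1906, 520 and 231 at 18 h, and the groups overlapped because 6 h replicate 2 was low. Its call (-1.88 ± 0.60 (SE), adjusted p = 0.0494) ended without 6 h replicate 1, 3 or 4 or 18 h replicate 1, 3 or 4, after median centring, with an added constant of 16, with no filter, with only the 8 arrays fitted, with all 44 arrays fitted, without the variance trend, with array weights and over the arrays with low spike-in signals (adjusted p from 0.054 to 0.341). Tat, tyrosine aminotransferase, the classic glucocorticoid-induced liver enzyme, read 3519, 2475, 3055 and 5741 at 6 h and 2888, 2776, 818 and 2154 at 18 h, with overlapping groups and a difference of -0.85 ± 0.32 (SE), adjusted p = 0.109. It passed after quantile normalization alone (adjusted p = 0.0458). The receptor gene Nr3c1 averaged 323 ± 101 at 6 h and 237 ± 24.7 at 18 h (SD, n = 4), -0.36 ± 0.24 (SE), adjusted p = 0.482. The count of 10 members called fell to 4 without 6 h replicate 4, to 5 without 18 h replicate 3, to 6 when 18 h replicate 1 or 4 or 6 h replicate 1 was left out, to 5 with only the 8 arrays fitted and to 6 over the arrays with low spike-in signals.

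**Figure D1:**
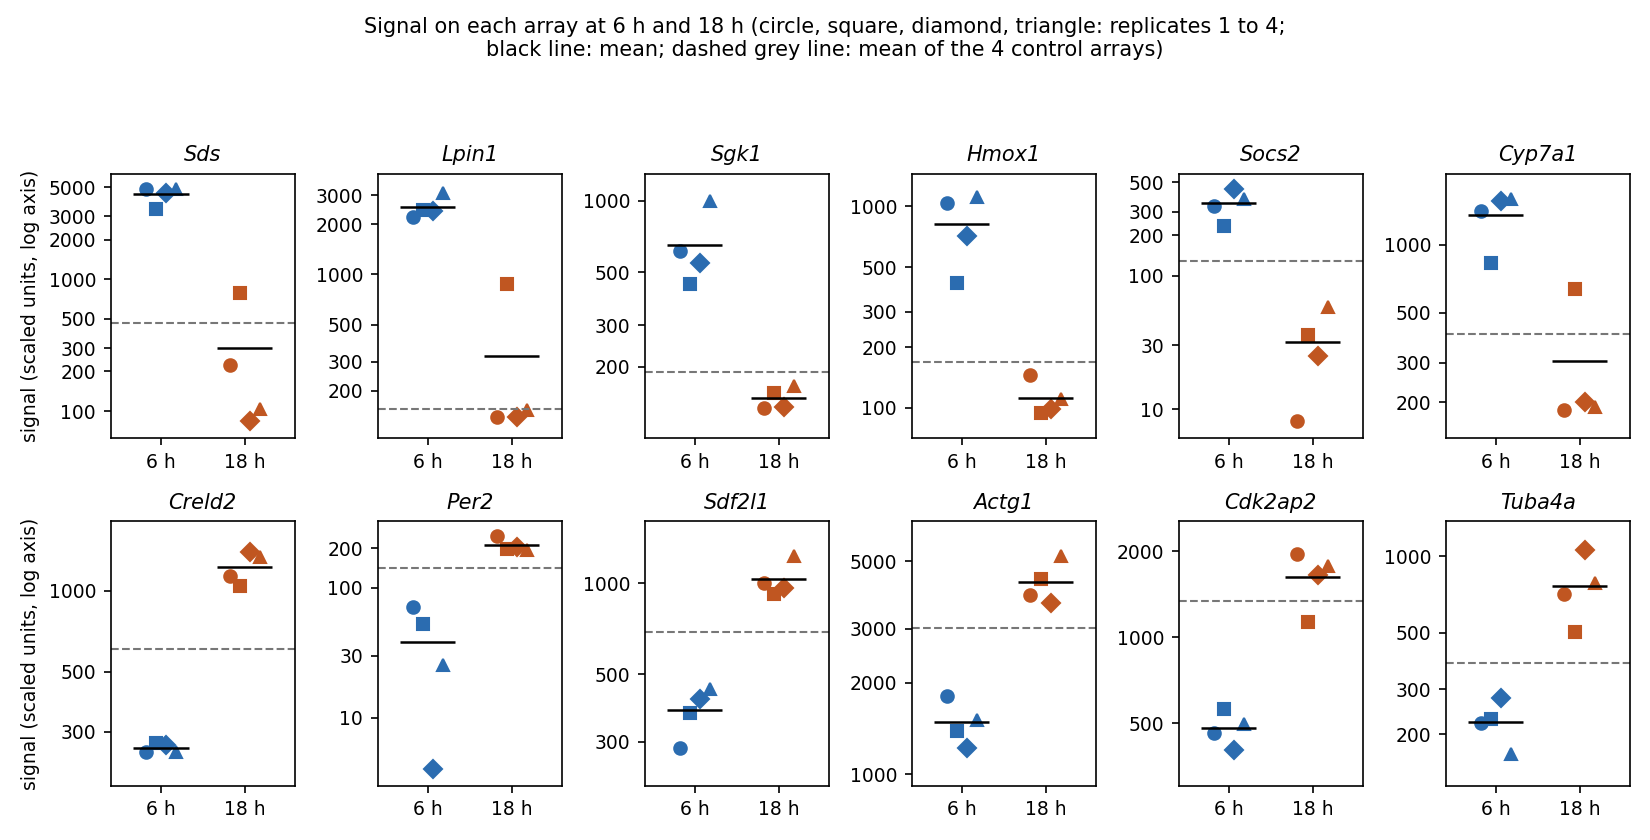
Signal on a log axis (scaled units) of 12 genes on each of the 4 arrays at 6 h (blue) and the 4 at 18 h (orange), with the mean of each group as a black line and the mean of the 4 control arrays as a dashed grey line. In all 12 panels the groups do not overlap, and in the panels of Sds, Lpin1 and Cyp7a1 the 18 h replicate 2 (square, 791, 873 and 638) lies above the other 18 h arrays.

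Enzymes of amino acid and glucose metabolism moved in both directions. Lists can share members, so counts of different lists are not separate. Sds belongs to the amino acid list as well, Lpin1 to the fatty acid synthesis list and Sgk1 to the immediate-early list. Of 35 amino acid breakdown and urea cycle genes, 5 fell and 1 rose (median -0.23), and of 18 gluconeogenesis and glycogen genes, 6 fell and 2 rose (median -0.35). Over all genes, 3.42% were called lower and 3.62% higher. Gckr, the glucokinase regulatory protein, read 716, 759, 993 and 1143 at 6 h and 269, 306, 474 and 379 at 18 h without overlap and fell (-1.27 ± 0.20 (SE), adjusted p = 9.35e-05). Pygl, the liver glycogen phosphorylase, fell from a mean of 831 to 377 (-1.10 ± 0.26 (SE), adjusted p = 0.00812). Got1, the cytosolic aspartate aminotransferase, read 4391, 3871, 3518 and 7654 at 6 h and 2666, 4415, 417 and 533 at 18 h: 18 h replicates 1 and 2 lay near the 6 h arrays and the other 2 far below them. Its call (-1.82 ± 0.55 (SE), adjusted p = 0.0364) ended without 6 h replicate 1, 2, 3 or 4 or 18 h replicate 3 or 4, with no filter, with only the 8 arrays fitted and over the arrays with low spike-in signals (adjusted p from 0.0518 to 0.295). Gpt, alanine aminotransferase, was the amino acid enzyme that rose, from 219 to 565 (1.22 ± 0.34 (SE), adjusted p = 0.0243), and its call ended without 6 h replicate 1 or 2 or 18 h replicate 2 (adjusted p from 0.0608 to 0.127). Kynu, kynureninase of tryptophan breakdown, fell from a mean of 1129 to 524 (-1.15 ± 0.32 (SE), adjusted p = 0.0226). The Kynu call ended without 6 h replicate 1 or 3 or 18 h replicate 1, 2 or 4 and with all 44 arrays fitted (adjusted p from 0.0614 to 0.0949). Pklr, the liver pyruvate kinase, fell with overlapping groups from 610 to 206 (-1.46 ± 0.43 (SE), adjusted p = 0.0326). The Pklr call ended without 6 h replicate 2, 3 or 4 or 18 h replicate 1, 2 or 4, with only the 8 arrays fitted, with all 44 arrays fitted, over the arrays with low spike-in signals and with probe sets averaged (adjusted p from 0.051 to 0.164). The 5 amino acid genes called lower became 1 without 6 h replicate 3, 2 without 18 h replicate 4, and 3 without 6 h replicate 1 or 4. Without 18 h replicate 1, 3 were called lower, of which 2 were among the 5. Without 18 h replicate 2, 5 were called lower, but only 2 of them were among the first 5. The 6 gluconeogenesis members called lower became 2 when 18 h replicate 4 or either of replicates 2 and 3 at 6 h was left out, 3 without 6 h replicate 4, and 3 with only the 8 arrays or only the arrays with low spike-in signals.

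In lipid metabolism, 4 of 22 fatty acid and triglyceride synthesis genes fell and 2 rose (median -0.36), while 2 of 25 fatty acid oxidation and ketogenesis genes fell and 4 rose (median 0.17). These counts stand beside 3.42% of all genes called lower and 3.62% called higher. Thrsp, the Spot 14 protein of lipogenic tissues, read 2026, 1440, 3966 and 2614 at 6 h and 332, 428, 586 and 457 at 18 h. Every earlier array exceeded every later one, and the difference was -2.33 ± 0.34 (SE), adjusted p = 2.45e-05, carried alike by 2 further Thrsp probe sets (-2.26 and -2.39). Agpat2, an acyltransferase of phospholipid and triglyceride synthesis, went the other way, from 253 to 514 (0.97 ± 0.19 (SE), adjusted p = 0.0013). Cpt1a, which admits fatty acids to mitochondria, read 2152, 2462, 1589 and 1548 at 6 h and 793, 678, 663 and 825 at 18 h and fell without overlap (-1.33 ± 0.32 (SE), adjusted p = 0.00837). Hacl1, a peroxisomal lyase of alpha-oxidation, read 2722, 1957, 1094 and 3195 at 6 h and 461, 261, 341 and 412 at 18 h and fell 5.37-fold (-2.43 ± 0.31 (SE), adjusted p = 2.53e-06). G0s2, an inhibitor of adipose triglyceride lipase, rose (1.89 ± 0.37 (SE), adjusted p = 0.000963) although 6 h replicate 2 at 979 was far above the other 6 h arrays (177 to 232) and overlapped the later group (698 to 1642). Fads1, the delta-5 desaturase, fell from 878 to 361 (-1.74 ± 0.43 (SE), adjusted p = 0.00997). The Fads1 call ended without 18 h replicate 1 or 2 and with only the 8 arrays fitted (adjusted p from 0.0703 to 0.113). Eci1, an isomerase of mitochondrial beta-oxidation, rose from 804 to 1817 (1.21 ± 0.33 (SE), adjusted p = 0.0191). The Eci1 call ended without 6 h replicate 3 or 4 or 18 h replicate 1 and with all 44 arrays fitted (adjusted p from 0.0656 to 0.1). Cyp4a1, an omega-hydroxylase of fatty acids, rose from 1375 to 2310 (0.74 ± 0.22 (SE), adjusted p = 0.0296). The Cyp4a1 call ended without 6 h replicate 3 or 4 or 18 h replicate 1 or 2, after quantile normalization, with only the 8 arrays fitted and with all 44 arrays fitted (adjusted p from 0.0613 to 0.151). Ehhadh, a bifunctional enzyme of peroxisomal beta-oxidation, fell with overlapping groups from 1164 to 520 (-1.10 ± 0.34 (SE), adjusted p = 0.0438). The Ehhadh call ended without 6 h replicate 1, 2 or 4 or 18 h replicate 1, 2 or 3, after median centring, with no filter, with all 44 arrays fitted and with the replicate block (adjusted p from 0.0515 to 0.154). Without 18 h replicate 1 or 2 the synthesis members called lower were 2 in place of 4, and the median of that list ranged from -0.56 (18 h replicate 3 left out) to -0.10 (18 h replicate 1 left out). It became -0.21 on leaving out the second 18 h array and -0.15 on leaving out the third 6 h array. Of the oxidation members, none was called higher once replicate 3 or 4 at 6 h or replicate 1 at 18 h was left out.

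Genes of bile acid synthesis and transport that were called were all lower at 18 h. Of 20 genes measured, 7 fell, beside 3.42% of all genes called lower. None rose (1 at an unadjusted p under 0.05) and the median was -0.39. Cyp7a1, the rate-limiting enzyme of bile acid synthesis, read 1420, 835, 1574 and 1595 at 6 h and 185, 638, 201 and 191 at 18 h. The groups did not overlap, with 6 h replicate 2 the lowest earlier array and 18 h replicate 2 the highest later one, and Cyp7a1 fell 4.57-fold (-2.19 ± 0.40 (SE), adjusted p = 0.000498). Slc10a1, the sodium-dependent uptake carrier for bile acids, read 2414, 2520, 2392 and 2480 at 6 h and 1149, 1042, 1410 and 1362 at 18 h, a narrow spread in both groups, and fell (-0.97 ± 0.16 (SE), adjusted p = 0.000179). Abcg5, a subunit of the canalicular sterol exporter, fell from 194 to 90.5 (-0.90 ± 0.20 (SE), adjusted p = 0.00495), and Acot12, a cytosolic acetyl-CoA hydrolase, from 352 to 171 (-0.92 ± 0.22 (SE), adjusted p = 0.00707). By these roles Abcg5 and Acot12 act on sterols and acetyl-CoA rather than on bile acids, yet the list holds them and both count among the 7. Between 5 and 7 members were called lower when any 1 array was left out. Baat, which joins bile acids to amino acids, was called higher without 18 h replicate 1 (0.62, adjusted p = 0.0401) or without 18 h replicate 2 (0.62, adjusted p = 0.0381).

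Signalling and secreted-protein genes were among the 15 largest falls. Socs2, an inhibitor of growth hormone signalling, read 334, 237, 446 and 377 at 6 h and 8.12, 36.1, 24.9 and 58 at 18 h, with no overlap, and fell 6.09-fold (-2.61 ± 0.42 (SE), adjusted p = 0.000105). The later level lay below the control mean of 128 ± 24 (SD, n = 4). Hmox1, the heme oxygenase that degrades heme, read 1037, 417, 712 and 1120 at 6 h and 145, 94.5, 98.5 and 111 at 18 h and fell 5.6-fold (-2.49 ± 0.35 (SE), adjusted p = 1.34e-05). In the oxidant response and glutathione list it was the sole fall of 31 genes, beside 3 rises that included Gclc, the catalytic subunit of glutathione synthesis (1.03 ± 0.20 (SE), adjusted p = 0.000963). The shares of all genes called were 3.42% lower and 3.62% higher. Prdx6, a peroxiredoxin, rose from 544 to 893 (0.69 ± 0.17 (SE), adjusted p = 0.00842), and Nqo1, a quinone reductase, from 183 to 422 (1.03 ± 0.30 (SE), adjusted p = 0.0279). The Nqo1 call ended without 6 h replicate 2, 3 or 4 or 18 h replicate 1 or 3 and with all 44 arrays fitted (adjusted p from 0.0614 to 0.125).

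Coq10b, a coenzyme Q-binding protein, fell (-1.90 ± 0.31 (SE), adjusted p = 0.000144) with 6 h replicate 4 at 2260 against 885 to 1024 on the other 6 h arrays. Serpina7, thyroxine-binding globulin, fell from 623 to 129 (-1.99 ± 0.41 (SE), adjusted p = 0.00221), and both levels were below the control mean of 1301 ± 678. Hsd17b2, which oxidises estradiol and testosterone, fell from 827 to 217 (-1.96 ± 0.46 (SE), adjusted p = 0.00614), and Nrep from 714 to 108 (-2.53 ± 0.59 (SE), adjusted p = 0.00628). Aspa, which splits N-acetylaspartate, read 592, 660, 254 and 2419 at 6 h and 75.9, 304, 136 and 148 at 18 h, so that 6 h replicate 3 fell within the later range. The Aspa call (-2.03 ± 0.35 (SE), adjusted p = 0.00026) ended with only the 8 arrays fitted (adjusted p = 0.0583).

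Immediate-early genes fell in 6 of 25 cases, against 3.42% of all genes called lower. They rose in none (1 at an unadjusted p under 0.05), with a median of -0.29. Myc, the growth-promoting transcription factor, read 125, 83.7, 137 and 178 at 6 h and 33.4, 42.9, 45 and 21.7 at 18 h and fell without overlap (-1.25 ± 0.28 (SE), adjusted p = 0.00482). Gadd45g, a stress sensor, read 261, 139, 247 and 240 at 6 h and 68.2, 72.3, 45.2 and 62.4 at 18 h, with 6 h replicate 2 lowest of its group, and fell (-1.41 ± 0.37 (SE), adjusted p = 0.0134). Its relative Gadd45b fell with overlapping groups from 211 to 55.9 (-1.52 ± 0.40 (SE), adjusted p = 0.0135). The Gadd45b call ended without 6 h replicate 4 or 18 h replicate 3, with only the 8 arrays fitted and over the arrays with low spike-in signals (adjusted p from 0.0678 to 0.092). Among 27 inflammatory mediators and interferon targets 4 fell, again beside 3.42% of all genes. None rose (none at an unadjusted p under 0.05), and the median was -0.28. Cxcl1, a chemokine for neutrophils, read 683, 487, 965 and 678 at 6 h and 313, 273, 74.6 and 10.4 at 18 h, with every later array below every earlier one. Its call (-2.28 ± 0.72 (SE), adjusted p = 0.0452) ended without 6 h replicate 1, 2, 3 or 4 or 18 h replicate 3 or 4, after median centring, with an added constant of 16, with no filter and with all 44 arrays fitted (adjusted p from 0.0523 to 0.218). Irf7, an interferon regulatory factor, fell from 201 to 92.7 (-0.82 ± 0.20 (SE), adjusted p = 0.0105). The Irf7 call ended without 6 h replicate 4 and with only the 8 arrays fitted (adjusted p from 0.0802 to 0.0885). Nfkbia, the inhibitor of NF-kappa-B, fell from 266 to 126 (-0.94 ± 0.27 (SE), adjusted p = 0.0251). The Nfkbia call ended without 6 h replicate 1 or 4 or 18 h replicate 1, 3 or 4 (adjusted p from 0.0512 to 0.0967). Ccl5, a chemokine, fell from 152 to 79 (-0.69 ± 0.21 (SE), adjusted p = 0.0366). The Ccl5 call ended without 6 h replicate 1, 3 or 4 or 18 h replicate 2, 3 or 4, with no filter, with only the 8 arrays fitted, with all 44 arrays fitted and over the arrays with low spike-in signals (adjusted p from 0.0546 to 0.201). None of the 4 inflammatory members was called without 6 h replicate 4, 1 was called once replicate 3 or 4 at 18 h or replicate 1 at 6 h was left out, and 2 without 6 h replicate 3. RT1-S3, a class I histocompatibility gene, fell (-1.56 ± 0.26 (SE), adjusted p = 0.000145) and was the sole call among 18 antigen-presentation genes. Over all genes 3.42% were called lower, and 1 call of 18 is too few for its share to be compared. At an unadjusted p under 0.05 from limma, 6 of the 18 were lower and none higher, beside 756 and 727 of all 8068 genes. The median of the list was -0.14. Probe sets of near-identical histocompatibility genes can share transcripts. Col14a1, a fibril-associated collagen, was 1 of 3 matrix genes of 23 that fell (-0.82 ± 0.20 (SE), adjusted p = 0.0091), where 3.42% of all genes were called lower. The fibrillar collagen genes Col1a1 and Col3a1 were the other 2. Col1a1 went from 121 to 62.2 (-0.70 ± 0.18 (SE), adjusted p = 0.0154). The Col1a1 call ended without 6 h replicate 4 or 18 h replicate 1 or 2 and with probe sets averaged (adjusted p from 0.0522 to 0.107). Col3a1 went from 1053 to 571 (-0.93 ± 0.28 (SE), adjusted p = 0.0337). The Col3a1 call ended without 6 h replicate 1, 2 or 4 or 18 h replicate 1 or 2 and with only the 8 arrays fitted (adjusted p from 0.0642 to 0.188). Without 18 h replicate 1 the 3 matrix genes called became 1.

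Markers of other liver cells are given beside these falls. Summed over 8 Kupffer cell and macrophage markers, signals ran from 2022 to 2818 at 6 h, from 1168 to 2317 at 18 h and from 2597 to 3226 in the controls. Clec4f, a Kupffer cell lectin, was the 1 marker called, at 504 ± 69 at 6 h and 306 ± 93.4 at 18 h (SD, n = 4), -0.70 ± 0.19 (SE), adjusted p = 0.0158. The Clec4f call ended without 6 h replicate 4 or 18 h replicate 1 or 2 and with only the 8 arrays fitted (adjusted p from 0.0503 to 0.0995). Sums of 8 stellate cell markers ran from 673 to 749 at 6 h and from 607 to 990 at 18 h, and sums of 7 endothelial markers from 1225 to 1412 and from 1023 to 1312, with none of the 6 tested in each list called (2 stellate markers, both higher, and no endothelial marker at an unadjusted p under 0.05). Bile duct marker sums ran from 1099 to 1555 at 6 h and from 1440 to 2046 at 18 h, erythroid sums from 380 to 1009 and from 358 to 2382, neutrophil sums from 311 to 973 and from 571 to 3315, and lymphocyte sums from 401 to 511 and from 354 to 450. None of their markers tested was called (1 bile duct marker, higher, at an unadjusted p under 0.05). Of the neutrophil markers, S100a8, Cxcr2, Mmp9, Np4 and Defa5 were below the signal filter, as were 10 of 12 lymphocyte markers on the array. Most of each neutrophil sum was Lcn2, at 712 on 6 h replicate 4 and 3054 on 18 h replicate 4. Of the 3 neutrophil markers tested, 2 had a difference above 0 and 1 below. In bulk tissue, fewer cells of a type and less RNA per cell cannot be told apart, and the part of cell makeup in the falls was not tested.

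Genes of ER folding and heat shock that were called were all higher at 18 h. Of 40 genes measured, 17 rose, none fell (2 at an unadjusted p under 0.05) and 23 did not pass, with a median of 0.50 against -0.01 over all genes and 3.62% of all genes called higher. Creld2, an ER-resident chaperone-like protein, showed the largest rise of all genes tested. It read 253, 272, 267 and 252 at 6 h and 1136, 1043, 1389 and 1332 at 18 h. The earlier arrays were tightly grouped, the later ones all above them, and the difference was 2.09 ± 0.29 (SE), adjusted p = 1.06e-05, or 4.26-fold. The controls, at 609 ± 743 (SD, n = 4), ranged from 143 to 1718 and so spanned both times. Sdf2l1, a partner of ER-resident Hsp40 proteins, read 286, 374, 415 and 447 at 6 h and 1004, 919, 966 and 1233 at 18 h and rose without overlap (1.37 ± 0.23 (SE), adjusted p = 0.000193). Dnajb11, an ER-resident Hsp40 co-chaperone, read 246, 243, 335 and 207 at 6 h and 499, 470, 728 and 578 at 18 h and rose (1.05 ± 0.20 (SE), adjusted p = 0.000736).

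The named rises of smaller size in that list included classic chaperones. Hspa5, the ER Hsp70 known as BiP, averaged 2610 at 6 h and 4041 at 18 h (0.63, adjusted p = 0.0177), and Hsp90b1, the ER Hsp90, 1976 and 3570 (0.84, adjusted p = 0.00054). These and the 2 genes named next were chosen after their values were seen, for the promoter motif described below. Calr, the calcium-binding lectin chaperone calreticulin, averaged 1577 and 2661 (0.74, adjusted p = 0.0207), and Dnajc3, an ER co-chaperone and kinase inhibitor, 563 and 866 (0.58, adjusted p = 0.0131). Regulators and degradation factors of the ER stress response, named here after their values were seen, gave differences that did not pass: -0.59 for Xbp1 (adjusted p = 0.0623), 0.25 for Atf4, -0.05 for Dnajb9, 0.00 for Herpud1 and -0.29 for Edem1. Xbp1 was called lower under 6 of 22 alternatives (adjusted p from 0.0245 to 0.0486): after quantile normalization, with a filter at the 50th percentile, with only the 8 arrays fitted, with array weights, with the replicate block and with the spike-in level as a term. Outside the ER, the cytosolic Hspb1 rose (1.11 ± 0.34 (SE), adjusted p = 0.0391). The Hspb1 call ended without 6 h replicate 1, 3 or 4 or 18 h replicate 1, 2, 3 or 4, with no filter, with all 44 arrays fitted and over the arrays with low spike-in signals (adjusted p from 0.0514 to 0.176). The number of members called higher was between 11 and 14 with 1 array left out, and was 11 when 6 h replicate 1 was left out.

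**Figure D2:**
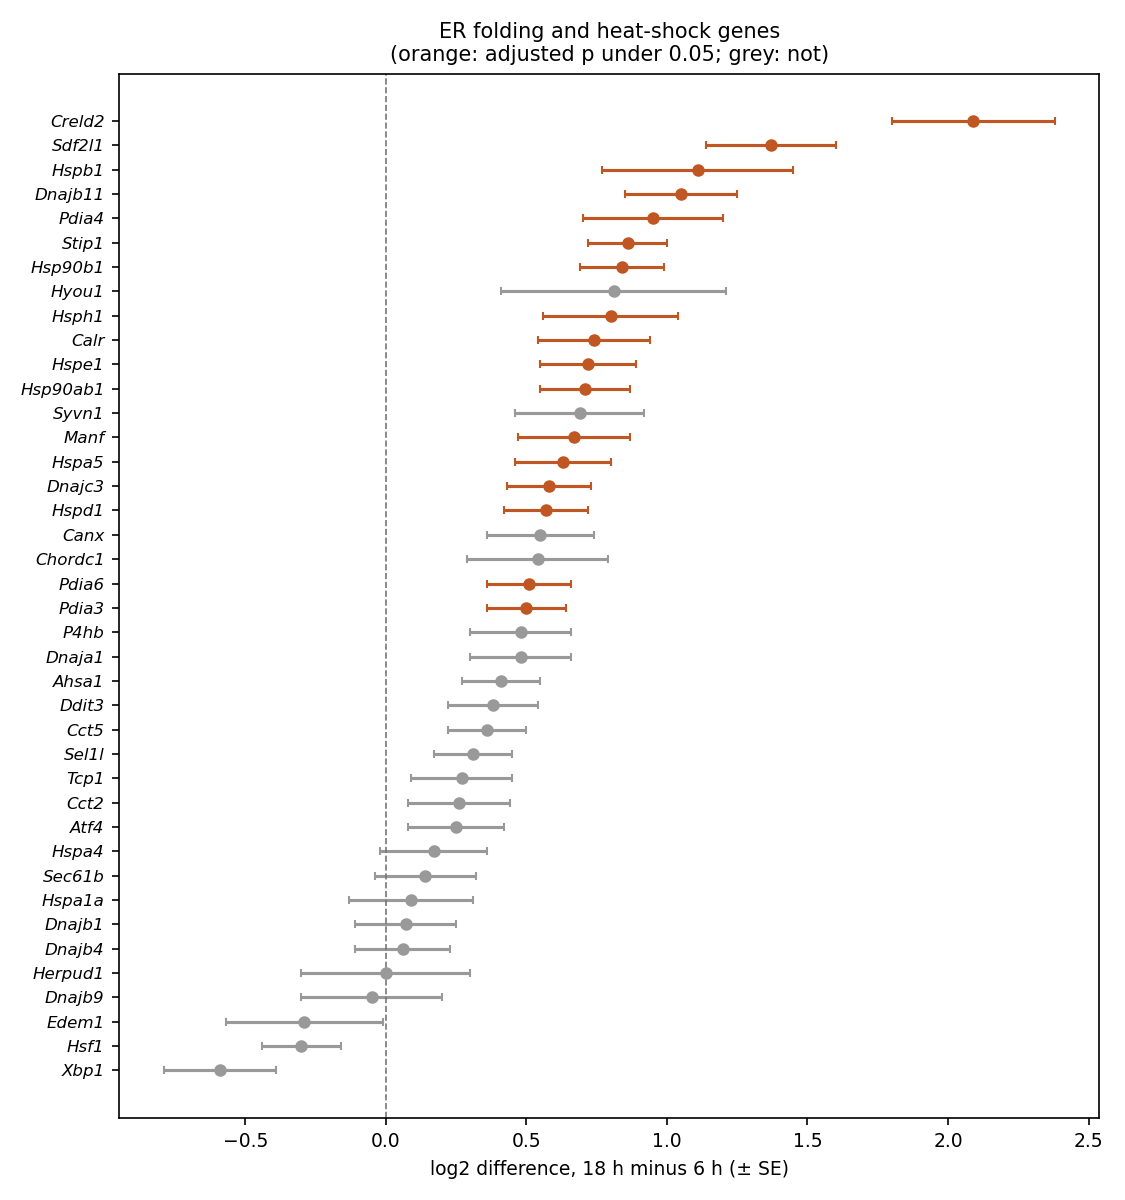
Log2 difference, 18 h minus 6 h, with its standard error for each of the 40 ER folding and heat-shock genes measured, in order of size; orange marks an adjusted p under 0.05. The 17 orange points lie between 0.50 and 2.09, and Xbp1 at -0.59 is the lowest point.

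Because the members called were all higher, promoters of some of them are shown. The ER stress response element, a motif known to be bound by NF-Y and ATF6 and written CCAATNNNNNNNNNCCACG, was searched on both strands from 250 bases before to 50 after each gene's start in RefSeq promoters of build GRCr8, a search added after the rises were seen. It was found in 5 of the 14 list members called higher that had a promoter (35.7%), in 7 of 35 list members measured (20%), in 14 of 6743 genes tested (0.208%) and in 21 of all 27457 promoters (0.0765%). Among promoters of genes called lower it was found in 0 of 230, too few promoters to compare for a motif as rare as 0.208%. The motif was chosen with this list in view, so its share among the members is a description and no separate support. All stretches below lie before the start of the gene and are written along the gene's strand, with the fixed bases of each match in capitals, and in Calr and Creld2 the match reads on the opposite strand.
Creld2, chr7:121789219-121789277, plus strand: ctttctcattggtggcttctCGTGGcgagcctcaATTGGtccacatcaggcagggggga
Hspa5, chr3:38452953-38453011, plus strand: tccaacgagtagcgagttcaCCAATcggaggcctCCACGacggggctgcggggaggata
Hsp90b1, chr7:23012327-23012489, minus strand: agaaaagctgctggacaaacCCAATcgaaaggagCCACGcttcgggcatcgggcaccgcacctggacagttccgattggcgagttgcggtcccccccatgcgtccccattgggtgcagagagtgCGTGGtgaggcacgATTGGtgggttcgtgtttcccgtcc
Calr, chr19:40213117-40213173, plus strand: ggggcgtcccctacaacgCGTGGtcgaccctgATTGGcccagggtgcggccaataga
Dnajc3, chr15:102432514-102432572, plus strand: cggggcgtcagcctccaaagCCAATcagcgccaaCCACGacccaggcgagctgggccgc
Hsp90b1 carries 2 matches, one on each strand. Xbp1 and Canx, the other 2 list members with the motif, did not pass the test (-0.59 and 0.55, adjusted p = 0.0623 and 0.0644). Creld2, with the largest rise, holds 1 match, and Sdf2l1 and Dnajb11 hold none in this window. A match is a description of the sequence, not a site.

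Genes of translation moved in both directions. Of 36 ribosome biogenesis and translation genes, 8 rose and 4 fell, with a median of 0.00. Among all genes 3.62% were called higher and 3.42% lower. Those that rose, listed after their values were seen, were the ribosomal protein genes Rpl4, Rpl18, Rplp0, Rps3, Rps6 and Rps9 and the translation factor genes Eef1b2 and Eif5a, and 24 members did not pass. Rplp0, a stalk protein of the large ribosomal subunit, read 1846, 1864, 2084 and 2353 at 6 h and 3911, 3515, 3280 and 4023 at 18 h and rose without overlap (0.85 ± 0.15 (SE), adjusted p = 0.000413). Rps3, of the small subunit, rose from 1554 to 2589 (0.74 ± 0.17 (SE), adjusted p = 0.00625). The Rps3 call ended with only the 8 arrays fitted (adjusted p = 0.0537). Those that fell were Nop58, Gar1, Pes1 and Rrs1. Rrs1, a factor of ribosome assembly, read 206, 204, 254 and 211 at 6 h and 59.5, 135, 97.1 and 97.9 at 18 h (-0.98 ± 0.24 (SE), adjusted p = 0.00817). Gar1, a protein of the particles that modify ribosomal RNA, fell from 117 to 46.7 (-1.01 ± 0.29 (SE), adjusted p = 0.0251). The Gar1 call ended without 6 h replicate 1 or 3 or 18 h replicate 3 or 4, with an added constant of 16, with only the 8 arrays fitted and over the arrays with low spike-in signals (adjusted p from 0.0539 to 0.163). Leaving out 18 h replicate 1 left 3 of the 8 called higher, and leaving out 18 h replicate 2 or 6 h replicate 2 left 5, while the fit of the 8 arrays called 3 members higher. The number called lower went from 4 to 1 without 6 h replicate 3 and to 2 without 18 h replicate 3 or 18 h replicate 4.

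Mitochondrial oxidative phosphorylation genes rose in 7 of 43 cases, against 3.62% of all genes called higher. They fell in none (none at an unadjusted p under 0.05), with a median of 0.23. Cyc1, a cytochrome subunit of complex III, read 881, 872, 963 and 948 at 6 h and 1490, 1464, 1285 and 1333 at 18 h and rose (0.59 ± 0.13 (SE), adjusted p = 0.00535). Ndufb8, a subunit of complex I, rose from 127 to 259 (0.90 ± 0.23 (SE), adjusted p = 0.0122). The Ndufb8 call ended without 6 h replicate 1 (adjusted p = 0.0683). Ndufb10, of the same complex, rose from 580 to 817 (0.48 ± 0.15 (SE), adjusted p = 0.0485). The Ndufb10 call ended without 6 h replicate 1 or 4 or 18 h replicate 1, 3 or 4, after median centring, with no filter, with only the 8 arrays fitted, without the variance trend and over the arrays with low spike-in signals (adjusted p from 0.0555 to 0.191). Atp5mc3, a gene of the ATP synthase ring, rose from 2833 to 4176 (0.55 ± 0.15 (SE), adjusted p = 0.022). The Atp5mc3 call ended without 6 h replicate 1 or 2 or 18 h replicate 1, 2 or 4 and with only the 8 arrays fitted (adjusted p from 0.0532 to 0.0834). Members called were 2 without 18 h replicate 1 or 6 h replicate 1, 3 without 6 h replicate 4 and 4 without 6 h replicate 2. They were 4 after median centring, 2 with only the 8 arrays and 11 with array weights. Proteasome and ubiquitin genes rose in 3 of 28 cases and fell in 1 (median 0.23), beside 3.62% and 3.42% of all genes. All 4 were subunits of the core particle. Psmb5 rose from 684 to 1160 (0.72 ± 0.18 (SE), adjusted p = 0.0118). The Psmb5 call ended without 18 h replicate 1 (adjusted p = 0.0742). Psma7 rose from 574 to 867 (0.56 ± 0.14 (SE), adjusted p = 0.0133). The Psma7 call ended without 18 h replicate 1 and with only the 8 arrays fitted (adjusted p from 0.066 to 0.0741). Psmb3 rose from 838 to 1228 (0.53 ± 0.15 (SE), adjusted p = 0.0262). The Psmb3 call ended without 6 h replicate 1 or 3 or 18 h replicate 1, 2 or 3 and with only the 8 arrays fitted (adjusted p from 0.0504 to 0.105). Psma3 fell with overlapping groups from 357 to 196 (-0.75 ± 0.21 (SE), adjusted p = 0.0273). The Psma3 call ended without 6 h replicate 1 or 3 or 18 h replicate 1, 2 or 4, after median centring and with only the 8 arrays fitted (adjusted p from 0.0587 to 0.111). Proteasome genes called higher were none without 18 h replicate 1 and 7 without 18 h replicate 4.

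The rest of the 15 largest rises had varied roles. Actg1, cytoplasmic gamma-actin, read 1804, 1385, 1225 and 1508 at 6 h and 3862, 4377, 3651 and 5193 at 18 h, and Tuba4a, an alpha-tubulin, 221, 230, 276 and 167 at 6 h and 712, 503, 1057 and 784 at 18 h. Near-identical actin and tubulin genes exist whose transcripts a probe set may share. Both rose without overlap, by 1.51 ± 0.17 (SE), adjusted p = 3.89e-07 for Actg1 and by 1.61 ± 0.21 (SE), adjusted p = 3.91e-06 for Tuba4a. Cdk2ap2, a partner of the cell cycle kinase CDK2, read 460, 562, 402 and 497 at 6 h and 1963, 1130, 1659 and 1780 at 18 h, with 18 h replicate 2 lowest of the later arrays, and rose (1.68 ± 0.19 (SE), adjusted p = 3.89e-07). Cisd3, a mitochondrial iron-sulphur protein, rose from 216 to 537 (1.21 ± 0.19 (SE), adjusted p = 5.15e-05), and Atf5, a stress-responsive transcription factor, from 485 to 1330 (1.36 ± 0.29 (SE), adjusted p = 0.00318).

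A few rises rested on dim or uneven signals. Npy, the gene of neuropeptide Y, read 102, 97.2, 105 and 89.5 at 6 h and 963, 458, 181 and 230 at 18 h: the later arrays all exceeded the earlier ones but were spread widely among themselves (1.64 ± 0.31 (SE), adjusted p = 0.000911). Prkcz, an atypical protein kinase C, read 9.18, 8.69, 9.65 and 69.5 at 6 h and 112, 98, 81.7 and 97.7 at 18 h, with 6 h replicate 4 well above the other earlier arrays, and rose (1.32 ± 0.32 (SE), adjusted p = 0.00859). Rbp7, a retinol-binding protein, read 16.8, 20, 21.5 and 13 at 6 h and 109, 349, 63.9 and 37.9 at 18 h, and its call (1.47 ± 0.34 (SE), adjusted p = 0.00591) ended without 18 h replicate 2 and with only the 8 arrays fitted (adjusted p from 0.0518 to 0.0667). Of 45 drug-metabolising enzymes 4 rose and 3 fell (median -0.19), beside 3.62% and 3.42% of all genes. The 4 rises became 1 without 18 h replicate 3 or without 6 h replicate 2 or 4, and 2 without 18 h replicate 4 or 6 h replicate 1. Without 18 h replicate 1, 2 were called higher, of which 1 was among the 4. Without 6 h replicate 3, 3 were called higher, of which 2 were among the 4. The 3 falls became 1 without 6 h replicate 4. Cyp3a9, a cytochrome P450, read 564, 272, 485 and 295 at 6 h and 1745, 1612, 1212 and 764 at 18 h and rose (1.64 ± 0.35 (SE), adjusted p = 0.00297). Sult1c3, a sulfotransferase, read 3831, 3470, 3781 and 3703 at 6 h and 866, 604, 2108 and 1492 at 18 h and fell (-1.67 ± 0.32 (SE), adjusted p = 0.000963). Cyp1a1, the classic aryl hydrocarbon receptor target, read 10.2, 9.32, 14.8 and 3.04 at 6 h and 64.9, 27.3, 96.4 and 137 at 18 h, and its call (1.36 ± 0.41 (SE), adjusted p = 0.0383) ended without 6 h replicate 1, 2, 3 or 4 or 18 h replicate 1, 3 or 4, with no filter and over the arrays with low spike-in signals (adjusted p from 0.0558 to 0.19).

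Clock genes were given whatever their result. Per2, a repressor of the clock loop, read 71.4, 52.2, 4.02 and 25.5 at 6 h and 248, 196, 205 and 193 at 18 h. Every 18 h array exceeded every 6 h array, and Per2 rose 3.71-fold on the scale used (1.89 ± 0.38 (SE), adjusted p = 0.00144). Nr1d1, the nuclear receptor REV-ERB alpha that represses Bmal1, read 83.8, 99.1, 131 and 94.1 at 6 h and 39.2, 70.2, 20.3 and 26.6 at 18 h and fell without overlap (-0.95 ± 0.21 (SE), adjusted p = 0.00361). These were the 2 calls among 14 measured members, against 7.04% of all genes, and the median was -0.27. Differences that did not pass were -0.74 for Bhlhe40 (adjusted p = 0.0703), -0.66 for Nfil3 (0.0946), -0.74 for Nr1d2 (0.117), -0.45 for Csnk1d (0.121), -0.25 for Clock (0.256), 0.40 for Usp2 (0.559), -0.45 for Por (0.644), -0.30 for Dbp (0.658), 0.21 for Cry2 (0.756), -0.06 for Bmal1 (0.895), -0.01 for Hlf (0.992) and 0.00 for Per1 (0.995). Of these, Nr1d2 passed without 18 h replicate 1 (adjusted p = 0.0341), Nfil3 without 18 h replicate 4 (0.0263), and Bhlhe40 without 6 h replicate 2 (0.0394), with the spike-in level as a term (0.0377) and over the arrays with low spike-in signals (0.0354). The other probe set of Clock and 2 of 3 other probe sets of Csnk1d differed in the opposite direction from the brightest one. The 4 arrays of a time were not alike for some genes. Nr1d2, a close relative of Nr1d1, read 235, 226, 256 and 227 at 6 h and 248, 204, 55.9 and 82.3 at 18 h, so that 18 h replicates 3 and 4 were low and the others at the 6 h level. Dbp, a clock output factor, read 71, 98.4, 75.6 and 79.4 at 6 h and 89.8, 89.7, 32 and 42.5 at 18 h, with the same 2 arrays low.

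Motifs of clock factors were searched in the same promoters. The E-box CACGTG was present in 28 of 258 promoters of genes called higher (10.9%), 25 of 230 of genes called lower (10.9%), 633 of 6743 genes tested (9.39%) and 1826 of all 27457 promoters (6.65%). The D-box TTATGTAA, a motif bound by DBP, HLF and NFIL3, was present in 2 of 258 (0.775%), 2 of 230 (0.87%), 38 of 6743 (0.564%) and 242 of 27457 (0.881%). Per2 was 1 of the 2 genes called higher with a D-box, and its stretch is shown with the match in capitals because Per2 was the largest clock change.
Per2, chr9:99497158-99497205, minus strand: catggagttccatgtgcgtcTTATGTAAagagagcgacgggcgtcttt
Of the 12 clock genes with a promoter, 1 held an E-box (Bhlhe40) and 1 a D-box (Per2).

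Several lists had few or no calls. None of 19 cholesterol synthesis and uptake genes was called by limma (1 higher and 2 lower at an unadjusted p under 0.05), nor any of 30 acute-phase and complement genes (1 and 1) or 25 cell cycle and DNA replication genes (0 and 5). Named after their values were seen, the acute-phase gene Orm1 was called higher under 5 of 22 alternatives (adjusted p from 7.87e-05 to 0.0432) and Il1r1 lower without 6 h replicate 2 (adjusted p = 0.0107). The cell cycle inhibitor gene Cdkn1a was called lower under 5 alternatives (adjusted p from 0.0111 to 0.048), Stmn1 lower without 18 h replicate 3 (adjusted p = 0.0232) and the cholesterol synthesis gene Ebp lower over the arrays with low spike-in signals (adjusted p = 0.0478). Among all 8068 genes, 727 were higher and 756 lower at an unadjusted p under 0.05. Insulin, growth hormone and IGF axis genes fell in 3 of 27 cases and rose in 1 (median -0.27), beside 3.42% and 3.62% of all genes. Foxo3, a transcription factor held back by insulin, fell from 302 to 189 (-0.62 ± 0.18 (SE), adjusted p = 0.0327). The Foxo3 call ended without 6 h replicate 1, 2, 3 or 4 or 18 h replicate 1, 3 or 4, after median centring, with only the 8 arrays fitted, over the arrays with low spike-in signals and with probe sets averaged (adjusted p from 0.0519 to 0.694). Grb14, an adaptor that inhibits the insulin receptor, rose with overlapping groups from 178 to 264 (0.47 ± 0.14 (SE), adjusted p = 0.0285). The Grb14 call ended without 6 h replicate 1, 3 or 4 or 18 h replicate 2 or 4, with only the 8 arrays fitted and over the arrays with low spike-in signals (adjusted p from 0.065 to 0.183). The 3 called lower became 1 without 18 h replicate 1 or 3 or without 6 h replicate 1, 3 or 4. Nuclear receptors and liver transcription factors rose in 1 of 36 cases, Nr1h3, the liver X receptor alpha (0.75 ± 0.13 (SE), adjusted p = 0.000279), and fell in 1, Onecut1, a hepatocyte factor (-1.49 ± 0.43 (SE), adjusted p = 0.0261). Neither share exceeded that of all genes, 3.62% higher and 3.42% lower. The Onecut1 call ended without 6 h replicate 1 or 2 or 18 h replicate 1, 3 or 4 (adjusted p from 0.0539 to 0.0792).

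**Figure D3:**
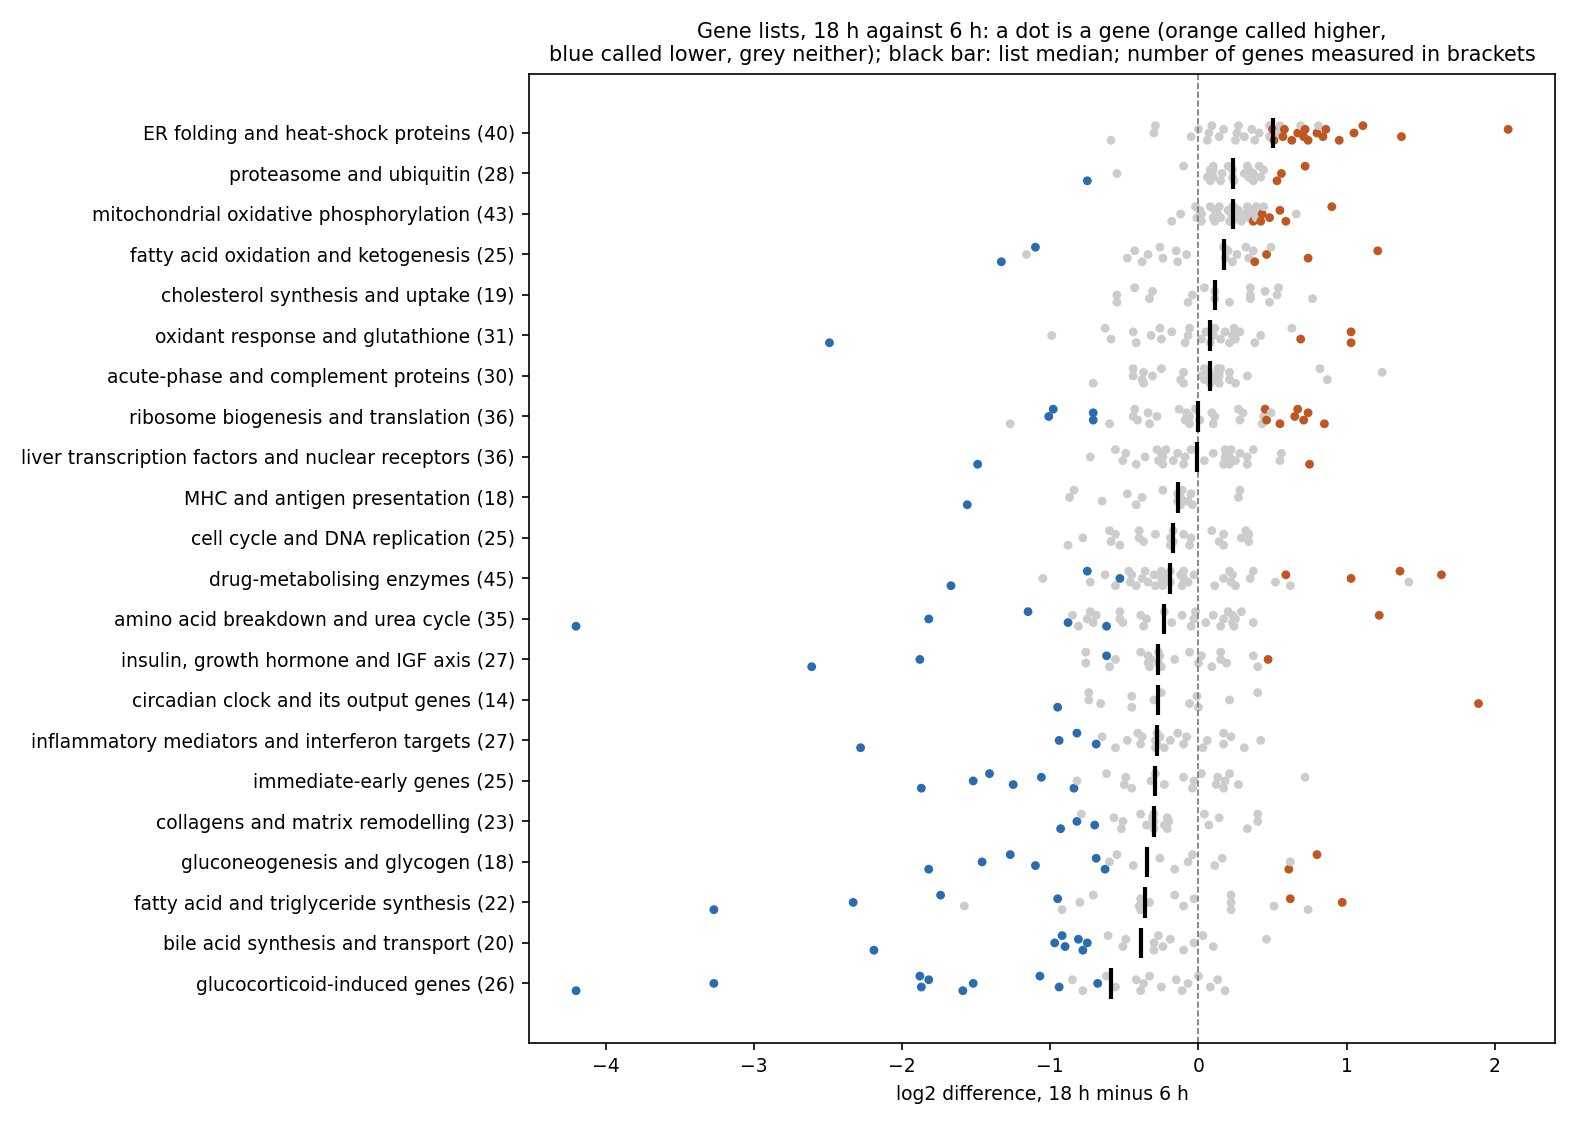
Log2 difference, 18 h minus 6 h, of every measured gene in 22 lists (one dot per gene, orange called higher, blue called lower, grey neither), with the list median as a black bar and the number of genes measured in brackets. Medians run from -0.59 for glucocorticoid-induced genes to 0.50 for ER folding and heat-shock proteins, and single genes reach from -4.20 (Sds) to 2.09 (Creld2).

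The intermediate times place these changes. Over the 292 genes called higher, the mean at 10 h lay between the 6 h and 18 h means for 88.7% and that at 13 h for 82.9%, against 42.9% and 41.9% of all genes with a difference above 0. For the 276 genes called lower the shares were 86.6% and 79.7%, against the background of 44% and 44.5% for all genes with a difference below 0. A wide gap between 2 means holds more intermediate values by construction, so the shares are descriptions. The 13 h mean was nearer the 6 h mean than the 18 h mean for 12.7% of the genes called higher and 12.7% of those called lower, against 37.7% of all genes. The 10 h mean was nearer 6 h for 53.4% and 58.3%, near the 51.9% of all genes. The 6 h and 18 h means also served to call the genes, so the nearer shares here and at later times are descriptions too.

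Later times did not all keep the 18 h level. At 36 h the mean was again nearer 6 h than 18 h for 60.6% of the genes called higher and 34.1% of those called lower, against 49.0% of all genes, and at 48 h for 71.6% and 40.6%, against 51.1%. Of the later arrays, 48 h replicate 1 carries a description written for the short course and 96 h replicate 1 one naming 72 h, and times were taken from the titles. Without 48 h replicate 1 the 48 h shares were 70.2% and 37.3%, against 49.1%. The 10 h mean of Sds was 1690 ± 966 and its 13 h mean 184 ± 76.4, and it was 158 ± 91.4 by 24 h but 3301 ± 973 at 36 h (SD, n = 4 each). Creld2 averaged 883 ± 446 at 13 h, then 670 ± 142 at 24 h before reaching 248 ± 58.2 at 36 h. Both genes had a 36 h mean on the 6 h side of their range. Per2 did not, with means of 181 ± 45.6 by 10 h and 145 ± 36.2 by 24 h, then 266 ± 59.1 at 36 h before 35.9 ± 19.6 at 72 h.

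The control arrays lay nearer 6 h for some genes and nearer 18 h for others. The control mean lay between both for 70.9% of the genes called higher and 55.4% of those called lower, against 33.4% and 30.0% of all genes with a difference above and below 0. It lay nearer the 18 h mean for 33.2% and 58.0%, against 53.1% and 45.6%. It lay below both times for 19.5% and 28.3%, against 29.5% and 30.8%, and above both for 9.59% and 16.3%, against 37.0% and 39.2%. The median size of the difference was 0.63 for genes called higher, 0.78 for those called lower and 0.19 for all genes. A wider gap holds more control means between the times and fewer outside by construction, so these shares are descriptions. For Lpin1 and Sgk1 the control means of 156 and 191 were on the 18 h side, and for Per2, Actg1 and Cdk2ap2 the control means of 140, 3028 and 1345 were nearer 18 h as well. These rises are not typical, as the control mean lay nearer 6 h for 66.8% of the genes called higher, against 50.8% of all genes. The control arrays' own hour of sampling is not given.

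**Figure D4:**
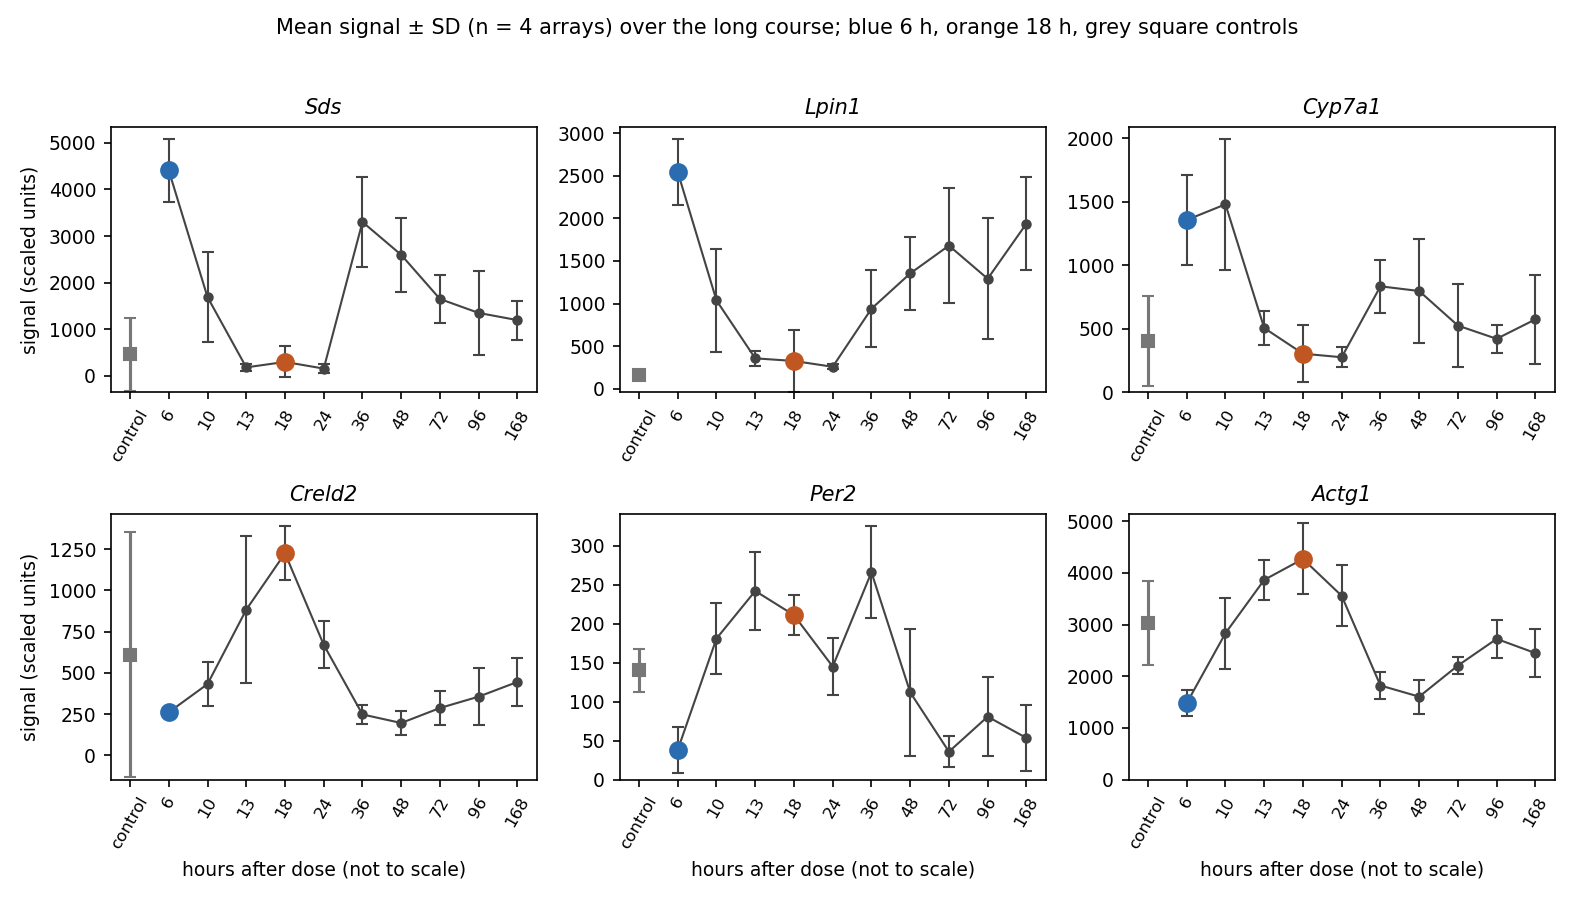
Mean signal ± SD (4 arrays each, scaled units) of 6 genes in the controls (grey square) and at the 10 labelled times of the long course, spaced evenly and not to scale, with 6 h in blue and 18 h in orange. Sds, Lpin1 and Cyp7a1 are low from 13 h to 24 h, whereas Creld2 and Actg1 are highest at 18 h and the mean of Per2 is higher at 13 h and 36 h than at 18 h.

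The same 2 hours were also sampled in the short course, on another array design with 3 arrays per time. There 476 of 3575 genes (13.3%) were called between 18 h and 6 h, 109 (3.05%) higher and 367 (10.3%) lower. In probe sets this was 793, 208 higher and 585 lower. That split moved with scaling, to 202 and 315 after quantile normalization and to 708 and 17 with 6 h replicate 3 left on its own scale. Leaving out 6 h replicate 1 took the total to 268. Leaving out 18 h replicate 2 took it to 479, 6 h replicate 3 to 508 and 18 h replicate 3 to 517, and a fit of the 6 arrays alone to 436. Of the 145 genes called higher in the long course and measured here, 67 (46.2%) had a difference above 0, and of the 121 called lower, 69 (57.0%) had one below 0, beside 36.6% and 63.4% of all 2893 genes measured in both.

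Values of the lists in the short course are set beside those of the long course. Of all 2893 genes measured in both, 63.4% had a difference below 0 in the short course (median -0.18), 331 were called lower and 108 higher. The list counts were not repeated under the other scalings, which moved the split between higher and lower. Of 17 glucocorticoid-induced genes measured in both, 15 had a difference below 0 in the short course (median -0.95), 4 were called lower and none higher (1 higher at an unadjusted p under 0.05). Sds read 2528, 1356 and 2656 at 6 h and 203, 268 and 346 at 18 h (-2.83 ± 1.12 (SE), adjusted p = 0.0865), and Got1 9327, 6412 and 8986 at 6 h and 1600, 1290 and 1274 at 18 h (-2.53 ± 0.50 (SE), adjusted p = 0.0012). Tat, which did not pass in the long course, was called lower (-1.16 ± 0.30 (SE), adjusted p = 0.0101). Tuba4a rose in both courses, here reading 162, 363 and 492 at 6 h and 1834, 2051 and 1756 at 18 h (2.48 ± 0.47 (SE), adjusted p = 0.00072). Of 24 ER folding and heat-shock genes, 9 had a difference above 0, none was called higher (1 at an unadjusted p under 0.05) and 5 were called lower (median -0.34). Of 14 bile acid genes, 10 had a difference above 0 and 4 were called higher (median 0.85). Nr1d1 had a difference of -1.15 ± 0.40 (SE), adjusted p = 0.0556, Nr1d2 one of -1.96 ± 0.34 (SE), adjusted p = 0.000378 and Per2 one of -0.46 ± 0.52 (SE), adjusted p = 0.597. The difference between the courses was not tested, since the array designs were scaled apart.

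**Figure D5:**
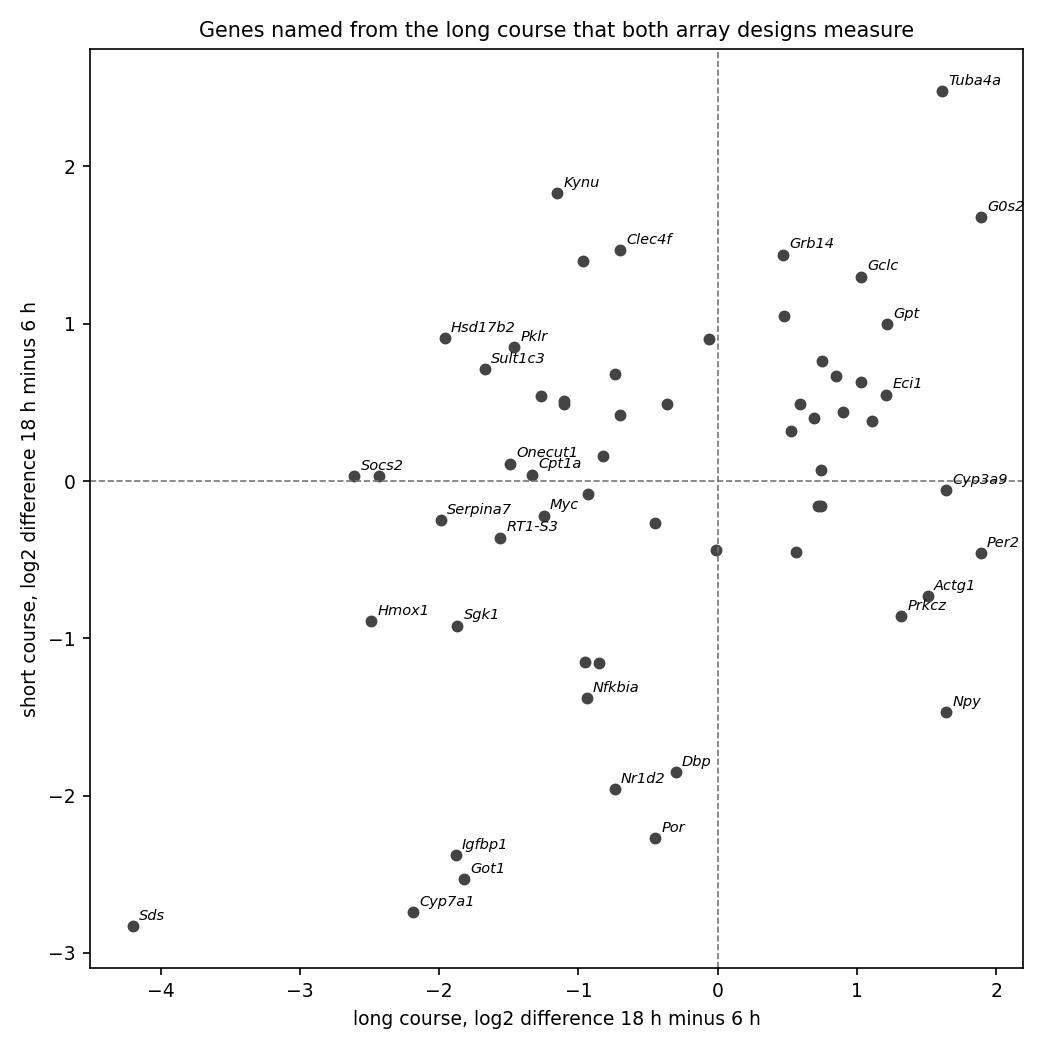
Log2 difference, 18 h minus 6 h, in the long course (horizontal axis) and the short course (vertical axis) for the 60 named genes that both array designs measure, with the larger changes labelled. Sds, Got1, Igfbp1 and Cyp7a1 lie below 0 on both axes and Tuba4a and G0s2 above 0 on both, while Kynu, Slc10a1 and Clec4f lie below 0 in the long course and above 0 in the short one.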

How the data were processed

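Liver RNA was measured on Affymetrix rat arrays of 2 designs, with 44 arrays in the long course and 47 in the short course. The authors deposited 1 intensity per probe set and array on a linear scale. How they combined probes is not given in the sources used here, but after trimming 2% at each end each long-course array averaged about 150, so arrays had been scaled. 1 short-course array (6 h replicate 3) lay on a lower scale and was multiplied up to the common trimmed mean of about 801. Values were taken as log2(intensity + 32), and the dimmest 30% of probe sets by mean signal were left out. A mean per time was fitted over the 40 dosed long-course arrays, which share 1 estimate of spread (30 residual degrees of freedom), with limma 3.58.1 in R 4.3.3 (lmFit and eBayes with a trend), and 18 h minus 6 h was tested with Benjamini-Hochberg adjustment over all probe sets. The short course was fitted apart in the same way. On simulated long-course data 200 probe sets were changed at 18 h, all by the same size. There the test recovered 2% of log2 changes of 0.5, 79.5% of changes of 1 and 98.5% of changes of 2. Small changes were mostly missed in that setting. In the data 760 probe sets of mixed size were called, so the adjustment differs and the rates need not carry over. Genes called higher had a median size of 0.63 and those called lower 0.78. The number of arrays limits the precision.

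Genes were named from the platform annotation where a probe set had 1 symbol (12783 of 15923 in the long course), and the brightest probe set stood for a gene. The text names the 15 largest rises and falls, up to 4 called members with the largest change in each of 22 pathway and 9 marker lists, and Tat, Nr3c1 and the clock genes. The comparison, the members and the lists were chosen with earlier results of these data known. Promoters came from RefSeq, build GRCr8. Other scalings, added constants, filters, arrays and variance settings were tried as alternatives.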

Additional observations from a re-analysis of the deposited data

Results flagged for a closer look

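On 10 occasions 1 array of a group of 4 stood apart from the other 3, by more of the group's range than Dixon's 95% limit for 4 values. Chance gives this in about 1 in 20 groups. Each of the 92 named genes has a group at 6 h and a group at 18 h, so a count near 10 can arise by chance. The highest 6 h arrays were G0s2 in replicate 2 (979), Prkcz in replicate 4 (69.5), Coq10b in replicate 4 (2260), Foxo3 in replicate 4 (328) and Rrs1 in replicate 3 (254). The lowest were Igfbp1 and Gadd45g in 6 h replicate 2 (787 and 139) and Clock in 18 h replicate 4 (89.3). At 18 h, Lpin1 and Cyp7a1 were highest in replicate 2 (873 and 638).

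For 15 named genes called in the long course, all 18 h arrays lay on one side of the 6 h mean there and all 18 h arrays of the short course on the other side of its own 6 h mean, and the difference between the courses was not tested. Single arrays of the 2 times overlapped in the short course for 8 of the 15, the groups were apart in both courses for 6, and 1 (Clec4f) was called in the short course. For all 9 that were lower at 18 h in the long course, short-course 6 h replicate 1 was the lowest of the 6 short-course arrays. Genes higher at 18 h in the long course had short-course differences of -0.46 for Per2, -1.47 for Npy, -0.73 for Actg1, -0.86 for Prkcz, -0.16 for Psmb5 and -0.45 for Psma7. Genes lower at 18 h in the long course had short-course differences of 0.91 for Hsd17b2, 0.85 for Pklr, 0.54 for Gckr, 0.51 for Pygl, 1.83 for Kynu, 1.40 for Slc10a1, 0.71 for Sult1c3, 0.42 for Col1a1 and 1.47 for Clec4f.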

How the results depend on the processing

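Of 78 named genes called, 44 kept their call under every alternative run, and 34 lost it under at least 1, with no change of direction among called genes. The long-course total of 760 probe sets was 496 to 630 with 1 array left out, 395 with only the 8 arrays fitted (359 of them shared with the 760) and within 1.5 times of 760 elsewhere, up to 1081 with array weights. The short-course total of 793 was 268 to 860 with 1 array left out, 517 after quantile normalization and 436 with only the 6 arrays fitted. Replicate numbers gave no sound pairing: same-numbered deviations correlated at 0.18, 0, 0.18 and 0.24, and 18 h replicates 1, 3 and 4 correlated best with the 6 h array of their own number but 18 h replicate 2 with 6 h replicate 4. A replicate block gave 854 probe sets in the long course (754 shared with the 760) and 776 in the short course; members of the ER list called were then 20 higher and 1 lower. Leaving out 48 h replicate 1 and 96 h replicate 1, added after seeing the data, gave 788 (750 shared), and of the named calls that of Igfbp1 ended. 3 uncalled clock genes near 0 changed sign. Per1 (0.00) became 0.01 after quantile normalization and after median centring, 0.06 with array weights, 0.17 over the arrays with low spike-in signals and -0.19 to 0.17 with 1 array left out. Hlf (-0.01) became 0.01 after median centring, 0.00 with a constant of 16, 0.07 with array weights, 0.12 over the arrays with low spike-in signals and -0.13 to 0.14 with 1 array left out. Bmal1 (-0.06) was -0.18 to 0.07 with 1 array left out. The Gapdh difference of 0.09 was -0.07 with the middle in place of the 5' probe set (exact permutation test, two-sided, p = 0.486). The causes were not tested. Recounts of called list members were added after seeing the data.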
